A study of Mus musculus with 7 samples.

Results

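Macrophage marker genes were followed in mouse mammary glands and in tumours that arose in mice with an ECD transgene. The set held 10 genes of the 50600 in the deposited tables. It was taken by gene symbol, but with earlier results of these data known. It comprised the pan-macrophage genes Adgre1, Csf1r and Cd68, the genes of resident, scavenging macrophages Cd163, Mrc1 and Lyve1, and the genes often found in macrophages of tumours and of damaged or lipid-laden tissue, Arg1, Trem2, Spp1 and Gpnmb. Sequenced RNA came from 3 control mammary glands and from the central part of 4 tumours, of which 1a and 1b were adenosquamous carcinomas, 1 was a spindle cell carcinoma and 1 a papillary carcinoma. The transgene of the tumour-bearing mice carries ECD (ecdysoneless), a cell cycle regulator. The sources used here give neither the promoter that drives it nor its species, nor the strain, age and genotype of the control mice. The tables count the mouse gene Ecd, which is no check of the transgene. The labels give tumours 1a and 1b the same number, which leaves unsaid whether 1 mouse bore both. P-values here measure the spread between these libraries, which may in part be technical. In the comparison of tumours with glands the 4 tumours form 1 group, so that differences between tumour types add to the spread.

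Macrophages are phagocytes that live in every tissue and are joined by cells derived from blood monocytes in tumours and wounds. The receptor Csf1r carries the survival signal of the lineage, while scavenger receptors such as Cd163 and Mrc1 mark cells resident around vessels and in fat, and Lyve1 is shared with lymphatic endothelium. In tumours and in injured or fatty tissue, macrophages can switch on Arg1, which breaks down arginine, and a lipid-handling programme that includes Trem2, Spp1 and Gpnmb.

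All 10 genes had counts in at least 6 of the 7 libraries, and all 10 passed the filter on low counts in each comparison. Library totals ran from 5148438 to 35631279 counts, with control gland 1 the shallowest, so that 3 counts corresponded to 1.06 CPM (counts per 1000000, over TMM-scaled library sizes) in that gland and to 0.296 CPM in the spindle cell tumour. Genes of mitochondrial DNA took 48.36% to 64.83% of counts in the glands and 18.34% to 32.61% in the tumours. The tissue labels were set against the markers of other cells. The epithelial genes Krt8 and Epcam were present in every library, at 32.1 CPM or more. The summed level of 6 adipocyte genes was 2650, 4530 and 3760 CPM in glands 1, 2 and 3 and between 7.0 and 120 CPM in the tumours. The summed level of 6 skeletal muscle genes was 13000 and 25300 CPM in glands 1 and 3, and 19.7 CPM in gland 2. Glands 1 and 3 therefore stood apart from gland 2 by their muscle RNA. Gland 2 in turn stood apart by its lymphocyte RNA, with 6 genes that summed to 122 CPM there and to 6.72 and 3.08 CPM in glands 1 and 3.

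Upstream sequence was available for 6 of the 10 genes, with 7 start sites, in RefSeq promoters of build GRCm38.p6. The 250 bases before the start are shown for Cd163, the gene that was lower in tumours, and for Cd68 and Trem2, which were higher in the adenosquamous tumours. Capitals mark GAGGAA, the core bound by PU.1 and other ETS factors, or its reverse complement TTCCTC.
Cd163, chr6:124304401-124304650, + strand: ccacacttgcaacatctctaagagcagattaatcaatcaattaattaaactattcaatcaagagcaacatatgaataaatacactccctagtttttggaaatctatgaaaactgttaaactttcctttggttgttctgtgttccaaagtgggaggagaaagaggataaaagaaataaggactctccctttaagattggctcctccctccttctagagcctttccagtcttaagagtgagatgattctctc
Cd68, chr11:69666171-69666420, - strand: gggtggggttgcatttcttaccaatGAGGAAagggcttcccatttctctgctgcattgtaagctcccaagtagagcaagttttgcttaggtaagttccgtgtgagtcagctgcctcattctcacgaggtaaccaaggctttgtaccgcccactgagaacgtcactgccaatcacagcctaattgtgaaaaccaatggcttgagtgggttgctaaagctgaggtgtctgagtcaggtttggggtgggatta
Trem2, chr17:48346151-48346400, + strand: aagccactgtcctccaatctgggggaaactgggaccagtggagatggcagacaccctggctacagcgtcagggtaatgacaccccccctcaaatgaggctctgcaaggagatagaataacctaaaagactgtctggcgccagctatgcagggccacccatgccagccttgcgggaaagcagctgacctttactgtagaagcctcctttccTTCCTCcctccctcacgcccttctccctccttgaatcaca
On either strand and over 300 bases from 250 before to 50 after the start, GAGGAA occurred in 28.3% of 32851 mouse promoters and in 4 of the 7 start sites, those of Cd68, Mrc1, Trem2 and 1 of the 2 of Spp1. In Cd68 a match began 225 bases before the start on the gene's strand, and in Trem2 the match lay 40 bases before it on the other strand. The E box CACGTG, read by Mitf, Tfeb and Tfe3, occurred in 7.15% of all promoters and in 0 of the 7 windows. The TATA box letters TATAAA occurred in 13.6% of all promoters and in 1 of the 7, a start site of Spp1. Matches of different motifs did not overlap in these windows. A match describes the letters only.

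Members of 1 role did not all share a direction. Cd163 was far lower in all tumours, Trem2 was higher in all tumours, the pan-macrophage genes with Arg1 were highest in the adenosquamous tumours, and Mrc1, Lyve1, Spp1 and Gpnmb were higher than the glands in some tumours and lower in others. By edgeR's quasi-likelihood test with Benjamini-Hochberg adjustment, 1 of the 10 members passed between the 4 tumours and the 3 glands, and it fell. Of all 14149 genes tested, 3.9% passed as higher and 4.57% as lower, so that the members' share of 1 in 10 is close to the background. The median log2 fold change was 2.24 over the members and 0.117 over all genes tested, and 7 of the 10 members had a positive value. At unadjusted p under 0.05 in edgeR were 6 of the 10 members and 28.9% of all genes tested. In DESeq2, which called 24.1% of all genes tested, 6 of the 10 passed, 5 of them higher, and Lyve1 received no adjusted p. In bulk RNA, fewer macrophages and less RNA of a gene per macrophage cannot be told apart.

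**Figure D1:**
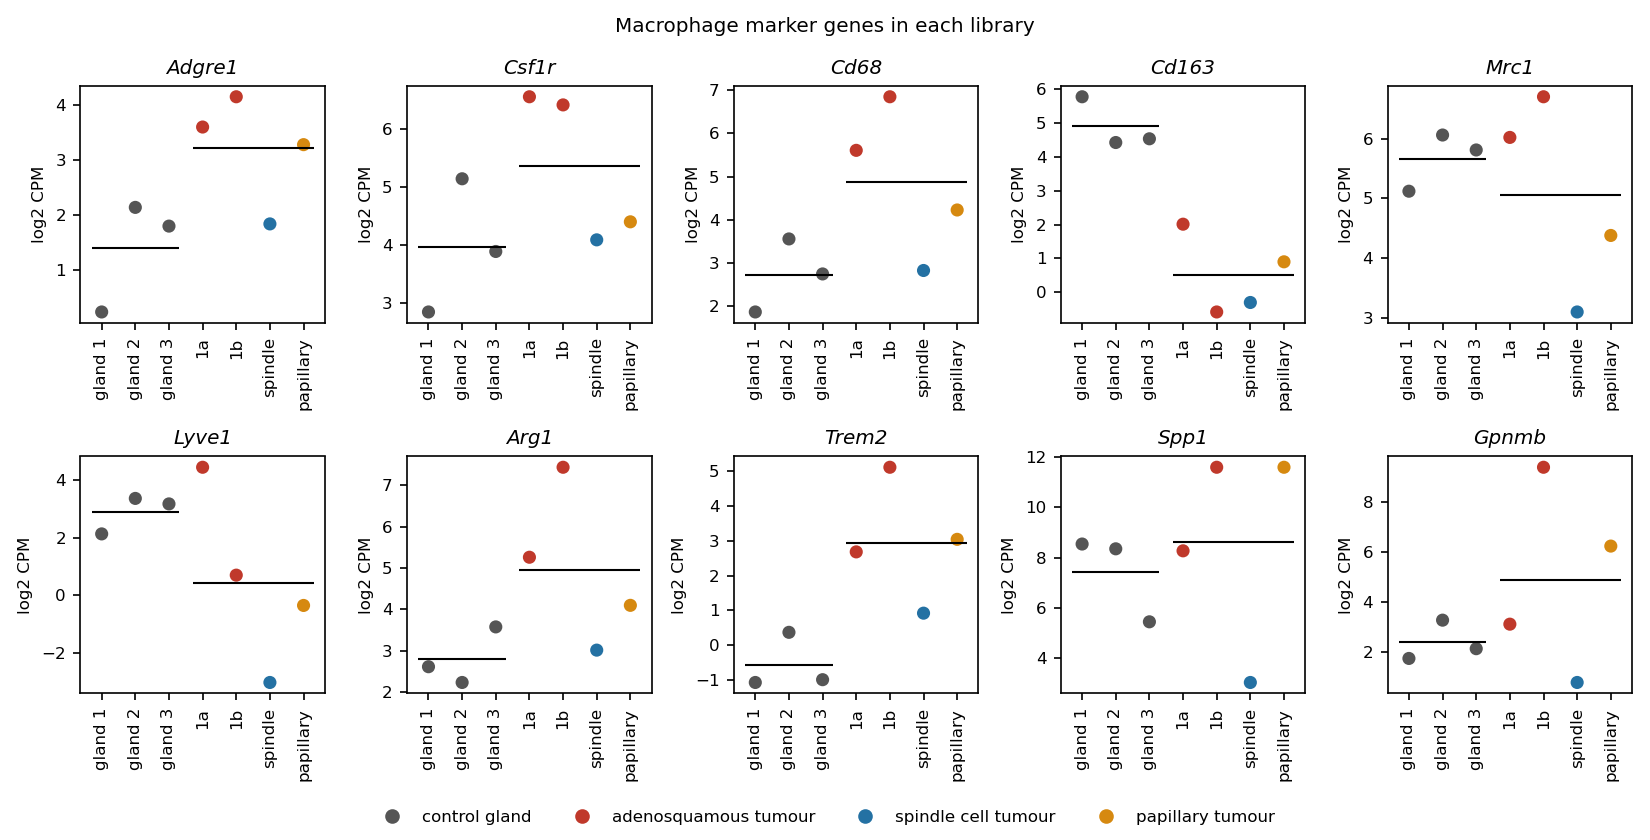
Level of each macrophage marker gene in each of the 7 libraries, as log2 CPM with a prior count of 2 (vertical axes differ between genes). Points are libraries, coloured by tissue, and lines are the means of the 3 glands and the 4 tumours. The 4 tumours lie below the 3 glands for Cd163 and above them for Trem2. The spindle cell tumour is the lowest tumour for 9 of the 10 genes, a rank not computed over all genes.

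Cd163 encodes the scavenger receptor for haemoglobin bound to haptoglobin and lies at chr6:124304656-124330527 on the + strand of GRCm38. Its level was 54.5, 21.3 and 23.0 CPM in control glands 1, 2 and 3, against 3.92 and 0.544 CPM in adenosquamous tumours 1a and 1b, 0.690 CPM in the spindle cell tumour and 1.74 CPM in the papillary tumour. All tumours were below all glands, as were 13.2% of all genes tested. The raw counts behind these levels were 154, 675 and 486 in the glands and 46, 4, 7 and 50 in the tumours. The mean was 32.9 ± 18.7 CPM (SD, n = 3) in glands and 1.72 ± 1.56 CPM (SD, n = 4) in tumours. Cd163 fell by 4.22 on the log2 scale (SE 0.75), an 18.6-fold lower level, with a 95% interval from -5.95 to -2.48 and an adjusted p of 0.0201 by edgeR's quasi-likelihood test.

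The direction of Cd163 was the same in every library and under every setting tried, but the call was not. Without control gland 1 the log2 fold change was -3.65 with adjusted p = 0.0692 in edgeR's test, without gland 3 it was -4.43 with adjusted p = 0.0659, and without tumour 1b it was -3.90 with adjusted p = 0.0508. Without tumour 1a it was -4.91. With gland 2, which carried little muscle RNA, as the only control, a choice made after the data were seen, it was -3.67 with adjusted p = 0.333 in edgeR's test, and no gene passed in that fit. In the 2 adenosquamous tumours alone Cd163 was 3.90 lower on the log2 scale (SE 0.94) with adjusted p = 0.0534 in edgeR's test. The level of the adipocyte genes moved with Cd163 between glands and tumours, with all 4 tumours below all 3 glands for each of the 6, and its part in the result was not tested. Among the 4 tumours, tumour 1a had both the most Cd163 and the most adipocyte RNA, 120 CPM in sum against 7.0 to 17.4 CPM in the other tumours. In glands 1, 2 and 3 the muscle genes summed to 13000, 19.7 and 25300 CPM beside 54.5, 21.3 and 23.0 CPM of Cd163.

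Mrc1, the mannose receptor at chr2:14229392-14332057 (+), was as high in the adenosquamous tumours as in the glands and low in the other tumours. It stood at 34.7, 66.5 and 56.1 CPM in the glands, 64.9 and 104 CPM in tumours 1a and 1b, 8.47 CPM in the spindle cell tumour and 20.6 CPM in the papillary tumour. Glands and tumours overlapped, and the log2 fold change between tumours and glands was -0.09 (SE 0.77), with a 95% interval from -1.88 to 1.70 and adjusted p = 0.952 in edgeR's test. The interval leaves room for a change of over 3-fold either way. Without the spindle cell tumour the value was 0.29, so that its sign rested on single libraries. The value was -0.78 in limma-voom and -1.08 in the fit with 4 groups, which gives each tumour type equal weight, and neither passed. Between adenosquamous tumours and glands it was 0.62 (SE 0.37) with adjusted p = 0.304 in edgeR's test.

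Lyve1, a hyaluronan receptor at chr7:110850607-110863239 (-), varied more within the tumours than between tumours and glands. It was 4.24, 10.1 and 8.86 CPM in the glands, 21.5 CPM in tumour 1a, 1.5 CPM in tumour 1b and 0.662 CPM in the papillary tumour. The spindle cell tumour had 0 counts, which allows up to 0.296 CPM, a limit that covers counting error only. Tumour 1a was above every gland and the other tumours were below every gland. The log2 fold change between tumours and glands was -0.41 (SE 1.49) with adjusted p = 0.881, and between adenosquamous tumours and glands it was 0.51 (SE 0.96) with adjusted p = 0.762, both in edgeR's test. Without tumour 1a the latter was -2.44 and the former -3.46. The former was also -3.17 in limma-voom (adjusted p = 0.145) and -4.32 in the fit with 4 groups (adjusted p = 0.0747 in edgeR's test). Lymphatic endothelium also uses Lyve1, and its 6 markers Prox1, Flt4, Pdpn, Ccl21a, Reln and Mmrn1 summed to 133 CPM in tumour 1a, 57.3 CPM in tumour 1b, 21.6 to 40.3 CPM in the glands and 9.34 and 19.0 CPM in the papillary and spindle cell tumours. Pdpn alone, which other cells share, gave 43.8 CPM of the sum in tumour 1b, where Prox1 (1.36 CPM), Reln (0.272 CPM) and Mmrn1 (0.408 CPM) were below every gland and Ccl21a was at 0. Tumour 1a was the highest library for Lyve1 and for all of these markers but Ccl21a, and the part of lymphatic vessels in the Lyve1 level was not tested.

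The pan-macrophage genes were higher in the adenosquamous tumours than in any gland. Adgre1, which encodes F4/80, lies at chr17:57358691-57483527 (+) and was 1.06, 4.29 and 3.37 CPM in the glands, 12.0 and 17.7 CPM in tumours 1a and 1b, 3.45 CPM in the spindle cell tumour and 9.58 CPM in the papillary tumour. The spindle cell tumour fell among the glands and the other tumours lay above them. Over the 4 tumours the log2 fold change was 1.81 (SE 0.65) with adjusted p = 0.123, and over the adenosquamous tumours 2.21 (SE 0.55) with adjusted p = 0.0566, neither of which passed edgeR's test. Gland 1 had 3 counts of Adgre1, so its level there is poorly fixed.

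Csf1r, the receptor for the macrophage growth factors Csf1 and Il34, lies at chr18:61100598-61132149 (+) and stood at 7.07, 35.1 and 14.7 CPM in the glands. It was 93.8 and 85.2 CPM in tumours 1a and 1b, 16.9 CPM in the spindle cell tumour and 20.9 CPM in the papillary tumour, the last of these being within the range of the glands. The log2 fold change was 1.5 (SE 0.80) with adjusted p = 0.253 over the 4 tumours and 2.16 (SE 0.60) with adjusted p = 0.0736 over the adenosquamous tumours, by edgeR's test. The span of the gene Hmgxb3 overlaps that of Csf1r on the other strand. In libraries that do not mark the strand, reads from sequence shared by exons of the 2 genes cannot be told apart. Whether their exons overlap was not computed.

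Cd68, a lysosomal membrane protein of phagocytes at chr11:69664213-69666153 (-), was 3.54, 11.6 and 6.59 CPM in the glands. It reached 48.8 and 116 CPM in tumours 1a and 1b, 7.0 CPM in the spindle cell tumour and 18.6 CPM in the papillary tumour. Both adenosquamous tumours and the papillary tumour were above all glands. Cd68 rose 10.5-fold in the adenosquamous tumours (log2 fold change 3.39, SE 0.57, adjusted p = 0.0261 in edgeR's test). Over the 4 tumours the log2 fold change was 2.67 (SE 0.96) and did not pass, with adjusted p = 0.121.

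When the 2 adenosquamous tumours were set against the 3 glands, 3 of the 10 members rose and 0 fell, where 5.01% of all 14708 genes tested passed as higher and 5.36% as lower. The median log2 fold change was 2.45 over the members and -0.038 over all genes tested, and 9 of the 10 members had a positive value. The 3 that passed were Cd68, Arg1 and Trem2. At unadjusted p under 0.05 in edgeR were 7 members and 29.9% of all genes tested. In DESeq2 8 members and 24.2% of all genes passed, and without the filter on low counts 7 members and 9.34% of all genes passed in edgeR's test. The calls needed every library except gland 2. Without gland 1, gland 3 or tumour 1b 0 members passed, against 7 at unadjusted p under 0.05 in each of these edgeR fits, and without tumour 1a only Gpnmb passed. Without gland 3 or without tumour 1b no gene at all passed, while the log2 fold changes of Cd68, Arg1 and Trem2 stayed at 2.33 or more in each of these fits.

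**Figure D2:**
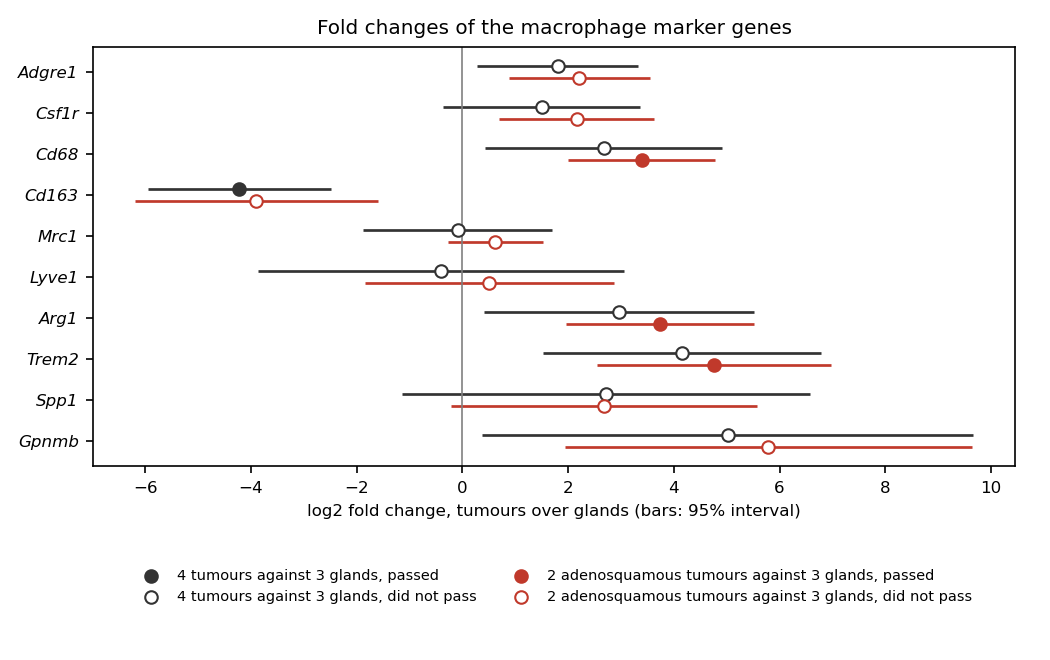
Log2 fold change of each member, with its 95% interval, in the 4 tumours (dark) and in the 2 adenosquamous tumours (red) against the 3 control glands. Filled points passed at adjusted p under 0.05 in edgeR's quasi-likelihood test: Cd163 in the first comparison, and Cd68, Arg1 and Trem2 in the second.

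Arg1, the enzyme that splits arginine into ornithine and urea, lies at chr10:24915221-24927484 (-). Its level was 6.01, 4.6 and 11.9 CPM in the glands, 38.3 and 173 CPM in tumours 1a and 1b, 7.98 CPM in the spindle cell tumour and 17.1 CPM in the papillary tumour. The spindle cell tumour lay within the range of the glands and the other tumours above it. Arg1 rose 13.3-fold in the adenosquamous tumours (log2 fold change 3.73, SE 0.73, adjusted p = 0.0343 in edgeR's test). Over the 4 tumours the log2 fold change was 2.96 (SE 1.10) with adjusted p = 0.128. Hepatocytes also use Arg1, and of their 6 markers Alb and Apoa1 had 0 counts in all 4 tumours, Otc had 1 count in the papillary tumour, and Ttr and Cps1 were at 0 in all 7 libraries. The last, Serpina1a, was 3.23 CPM in tumour 1a, 0 in tumour 1b, 0.296 CPM in the spindle cell tumour and 0.348 CPM in the papillary tumour, against 2.11 CPM or less in the glands. The part of such cells in the Arg1 level was not tested. Nos2, which encodes the enzyme that competes for the same arginine in classically activated macrophages, was 2.12, 1.48 and 1.19 CPM in the glands, 1.28 and 7.89 CPM in tumours 1a and 1b, 1.28 CPM in the spindle cell tumour and 0.383 CPM in the papillary tumour. Its log2 fold change between adenosquamous tumours and glands was 1.49 (SE 0.85), which did not pass edgeR's test (adjusted p = 0.287).

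Trem2, a lipid-sensing receptor at chr17:48346401-48354147 (+), was at the edge of detection in the glands. It was 0.354, 1.17 and 0.379 CPM there, from 1, 37 and 8 counts, and 6.3 and 34.4 CPM in tumours 1a and 1b, 1.77 CPM in the spindle cell tumour and 8.12 CPM in the papillary tumour. All tumours were above all glands, as were 16.3% of all genes tested. Over the 4 tumours the log2 fold change was 4.16 (SE 1.13, 95% interval 1.52 to 6.79) with adjusted p = 0.0637, which did not pass edgeR's test. It passed once the spindle cell tumour was left out, at 4.55 with adjusted p = 0.0496 in edgeR's test. In the adenosquamous tumours Trem2 rose 27.1-fold (log2 fold change 4.76, SE 0.91, adjusted p = 0.0327 in edgeR's test).

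Spp1 encodes osteopontin, a secreted ligand of integrins and Cd44 that epithelial cells also make, and lies at chr5:104435118-104441050 (+). It had no common direction across the tumours. It was 371, 327 and 43.7 CPM in the glands, 308 and 3080 CPM in tumours 1a and 1b, 8.08 CPM in the spindle cell tumour and 3080 CPM in the papillary tumour. Tumour 1b and the papillary tumour were far above every gland and the spindle cell tumour below every gland. The log2 fold change was 2.71 (SE 1.65, adjusted p = 0.312) over the 4 tumours and 2.68 (SE 1.19, adjusted p = 0.193) over the adenosquamous tumours, and neither passed edgeR's test. Without tumour 1b the value over the adenosquamous tumours was 0.29, and over the 4 tumours it was 1.18 in limma-voom and 0.53 in the fit with 4 groups.

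Gpnmb, a glycoprotein of lysosomes and melanosomes at chr6:49036546-49070929 (+), followed a like split. It was 3.18, 9.46 and 4.22 CPM in the glands, 8.43 and 664 CPM in tumours 1a and 1b, 1.58 CPM in the spindle cell tumour and 74.4 CPM in the papillary tumour. The 2 adenosquamous tumours thus differed from each other more than tumour 1a did from the glands. The log2 fold change was 5.02 (SE 1.99, adjusted p = 0.148) over the 4 tumours and 5.79 (SE 1.58, adjusted p = 0.0700) over the adenosquamous tumours, and neither passed edgeR's test. Without tumour 1b these were 2.34 and 0.54. Melanocytes and osteoclasts also use Gpnmb. Of the 6 melanocyte markers, Mitf, which macrophages and osteoclasts share, was 12.0, 23.9, 7.59 and 8.19 CPM in tumours 1a, 1b, spindle cell and papillary and 20.9 to 35.4 CPM in the glands. Each of the others (Tyr, Mlana, Pmel, Dct and Tyrp1) was at 0.836 CPM or less in every tumour. The osteoclast genes Acp5, Ctsk, Dcstamp, Ocstamp, Mmp9 and Calcr summed to 643 CPM in tumour 1a, 176 CPM in tumour 1b and 76.9 CPM in the papillary tumour, against 9.20 to 68.4 CPM in the glands and 12.9 CPM in the spindle cell tumour. Ocstamp alone gave 45.8 CPM of the papillary sum, where Acp5 (18.8 CPM) and Ctsk (11.6 CPM) were within the range of the glands and Mmp9 (0.557 CPM) below it. The osteoclast sum was highest in tumour 1a and Gpnmb in tumour 1b, and the part of such cells was not tested.

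The spindle cell tumour had the lowest level among the 4 tumours for 9 of the 10 members, all but Cd163. It was above every gland for 1 member, Trem2, and below every gland for 5, Cd163, Mrc1, Lyve1, Spp1 and Gpnmb, where 36.3% and 30.7% of all genes tested were above and below every gland in that tumour. Tumour 1b was the highest of all 7 libraries for 7 members and was above every gland for 8. Of all genes tested in the comparison of tumours with glands, 36.5% were above every gland in that tumour. How many of all genes had the spindle cell tumour lowest among the tumours, or tumour 1b highest of all libraries, was not computed. Tumour 1a and the papillary tumour were each above every gland for 6, as were 36.5% and 38.7% of all genes tested. A test that the 3 tumour types share 1 level, which assumes that the single spindle cell and papillary tumours vary as the replicated groups do, passed for 0 of the 10 members in edgeR's fit with 4 groups, where 0.125% of 16866 genes passed. In that fit 5 members and 18.1% of all genes were at unadjusted p under 0.05, with the smallest adjusted p at Mrc1, 0.0915. In DESeq2 5 members and 13.5% of all genes passed. An order of tumour types is therefore given as a description of these libraries.

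Levels per kilobase of merged exons give a rough comparison between genes. The length merges all annotated exons of a gene and may exceed that of the transcripts present, so that near ranks are uncertain. On this scale Spp1 had the highest level of the 10 members in 6 of the 7 libraries. The exception was the spindle cell tumour, where Cd68 came first at 5.57 CPM per kilobase and Spp1 next at 4.90. Cd163 ranked 2, 5 and 5 among the 10 in glands 1, 2 and 3, at 9.97, 3.90 and 4.22 CPM per kilobase. In tumours 1a and 1b it ranked 10, at 0.717 and 0.0996 CPM per kilobase, and it ranked 9 in the spindle cell and papillary tumours. Arg1 ranked 5, 7 and 3 in the glands and 3 or 4 in every tumour.

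The level of each gene was also set against the mean log2 CPM of Adgre1, Csf1r and Cd68 in the same library, as a description without a test. That mean was 1.65, 3.61 and 2.81 in the glands, 5.25 and 5.81 in tumours 1a and 1b, 3.97 for the papillary and 2.92 for the spindle cell tumour. Since it was 1.79 higher on average in the tumours than in the glands, a gene with an unchanged CPM is lower by that much on this scale, and the median of all 14149 genes tested was -1.71. Relative to the pan-macrophage mean, all 4 tumours were below all 3 glands for each of the 3 resident genes, as they were for 19.2% of all genes tested. Cd163 moved from a mean of 2.21 ± 1.71 (SD, n = 3) to -3.98 ± 1.61 (SD, n = 4), a log2 difference of -6.19. Mrc1, whose CPM overlapped between glands and tumours, was 3.47, 2.45 and 3.0 above the pan-macrophage mean in the glands and 0.77, 0.89, 0.18 and 0.41 above it in tumours 1a, 1b, spindle cell and papillary. Its difference was -2.41, with the groups apart by more than the range of the values within either of them. The median gene differed by -1.71 on the same scale.

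Lyve1 differed by -4.24 on this relative scale, with tumour 1a the nearest to the glands at -0.82 and the glands between -0.25 and 0.47. Trem2 went the other way, from -2.72, -3.24 and -3.81 in the glands to -2.57, -0.70, -2.00 and -0.92 in tumours 1a, 1b, spindle cell and papillary. All tumours were above all glands, as they were for 0.898% of all genes tested, but tumour 1a lay close to gland 1, whose value rests on 1 count. Arg1 overlapped between glands and tumours, with means of 0.12 ± 1.29 (SD, n = 3) and 0.47 ± 0.77 (SD, n = 4). Spp1 and Gpnmb also overlapped.

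**Figure D3:**
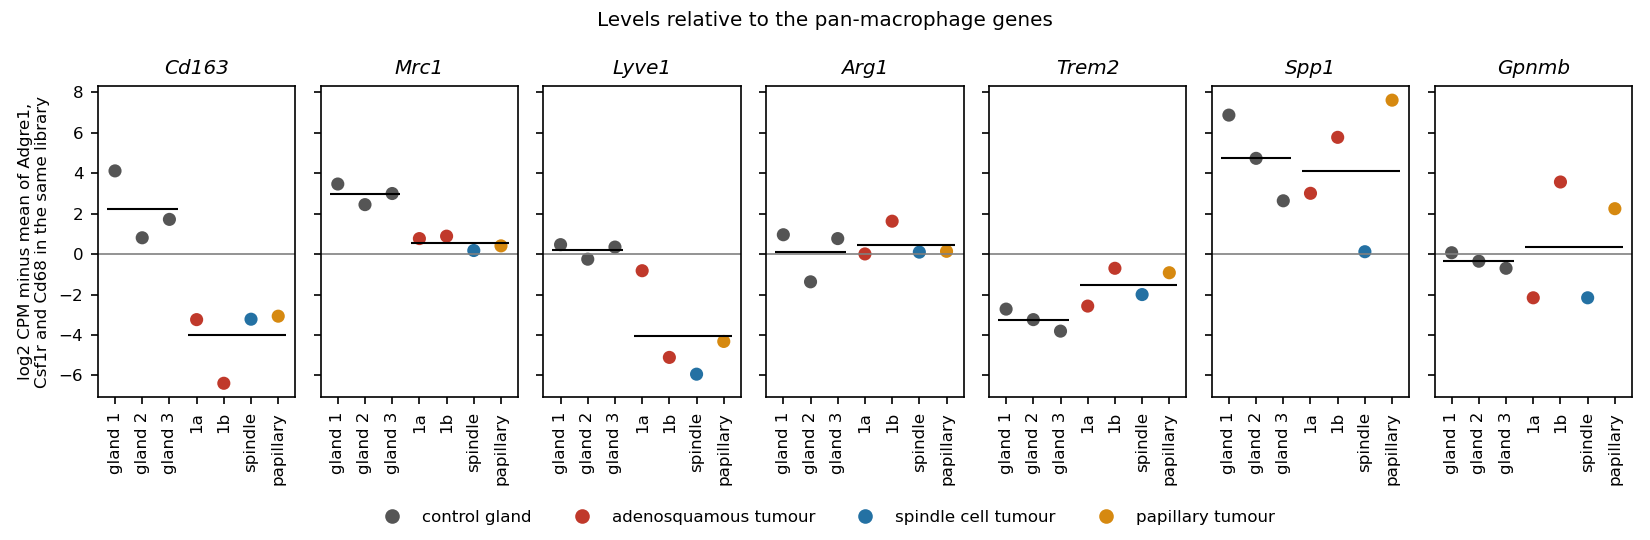
Log2 CPM of 7 members minus the mean log2 CPM of Adgre1, Csf1r and Cd68 in the same library, with lines at the means of the 3 glands and the 4 tumours. Cd163, Mrc1 and Lyve1 are lower in all tumours than in all glands, Trem2 is higher, and Arg1, Spp1 and Gpnmb overlap.

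Other genes of macrophages were read from lists that group them by role. Of all genes tested, 3.9% passed as higher and 4.57% as lower between tumours and glands in edgeR's test. Between adenosquamous tumours and glands 5.01% passed as higher and 5.36% as lower. DESeq2 passed 24.1% and limma-voom 10.8% of all genes tested between tumours and glands. These shares stand beside the counts of each list below. Of 18 further pan-macrophage genes, among them complement C1q, Itgam and Tyrobp, 18 had positive log2 fold changes in the tumours, with a median of 2.25, but 0 passed edgeR's test. At unadjusted p under 0.05 were 12 of them, against 28.9% of all genes tested (a share that also stands beside the counts of the further lists), and DESeq2 passed 11 and limma-voom 0. The one with the smallest p was the fractalkine receptor Cx3cr1, at 2.83, 3.88 and 1.04 CPM in the glands, 16.9 and 23.3 CPM in tumours 1a and 1b, 8.97 CPM in the spindle cell tumour and 8.05 CPM in the papillary tumour (log2 fold change 2.47, SE 0.62, adjusted p = 0.0517 in edgeR's test). Between adenosquamous tumours and glands 11 of the 18 rose, against 5.01% of all genes tested, and 0 fell, with a median of 2.75. Among these, named after their values were seen, C1qa rose 9.99-fold (adjusted p = 0.0343 in edgeR's test), and Itgam, the integrin chain CD11b that neutrophils share, rose 20.2-fold (adjusted p = 0.0270 in edgeR's test). That count was 2 without gland 1, 1 without tumour 1a and 0 without gland 3 or tumour 1b, with 12 or more at unadjusted p under 0.05 in each of these fits. Neutrophil markers moved the same way. Their 8 genes summed to 45.2 and 74.4 CPM in tumours 1a and 1b and to 2.87 CPM or less in the other libraries, Ly6g was at 0 everywhere, and their part was not tested.

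Of 15 genes of resident macrophages, 10 were tested in the tumours and 0 passed, with a median of -0.47, 4 at unadjusted p under 0.05, 2 passing in DESeq2 and 1 in limma-voom. The lectin Cd209g had the smallest p, at 3.54, 9.20 and 3.27 CPM in the glands, 0.936 CPM in tumour 1a, 0.0697 CPM in the papillary tumour and 0 in tumour 1b and the spindle cell tumour (log2 fold change -4.38, SE 1.23, adjusted p = 0.0693 in edgeR's test). In the adenosquamous comparison 1 of 11 rose, Stab1, a scavenger receptor that endothelium shares, by 4.39-fold (adjusted p = 0.0232 in edgeR's test). That call was lost without gland 3 or either adenosquamous tumour.

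Of 16 genes of tumour and lipid-associated macrophages, 0 passed in the tumours, with a median of 1.04, 4 at unadjusted p under 0.05, 3 passing in DESeq2 and 0 in limma-voom. The galectin Lgals3 had the smallest p, at 2.12, 6.02 and 6.64 CPM in the glands, 39.3 and 225 CPM in tumours 1a and 1b, 22.2 CPM in the spindle cell tumour and 28.8 CPM in the papillary tumour (log2 fold change 3.95, SE 1.02, adjusted p = 0.0558 in edgeR's test). Between adenosquamous tumours and glands 5.01% of all genes tested rose and 5.36% fell. Of this list 4 rose, Lgals3, Cd63, Itgax and Mmp12, and 2 fell, the lipid uptake genes Lpl and Cd36, which adipocytes also use. Those counts were 3 and 0 without tumour 1a, 1 and 1 without gland 1, and 0 and 0 without gland 3 or tumour 1b. Without gland 3 or tumour 1b, 7 and 6 of the 16 were at unadjusted p under 0.05 in edgeR's test.

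Of 12 alternative activation genes 8 were tested in the tumours and 1 fell. It was Retnla, a secreted resistin-like protein that fat tissue also makes, at 3.89, 16.2 and 12.0 CPM in the glands and 0.0851 CPM, 0, 0 and 0.0697 CPM in tumours 1a, 1b, spindle cell and papillary. With 778 counts in the glands and 3 in the tumours, the pooled ratio of glands to tumours was 270 (95% counting interval 92.1 to 1310), with adjusted p = 0.00835 in edgeR's test. The count of 1 that fell was the same without any single library, and it was 0 with gland 2 as the only control, with 1 at unadjusted p under 0.05 in edgeR's test. In the adenosquamous comparison 3 of 9 rose, Chil3, Msr1 and Il1rn, and 1 fell, again Retnla. The 3 became 2 without tumour 1a, 1 without gland 1 and 0 without gland 3 or tumour 1b, and no gene of the list fell without tumour 1a, gland 3 or tumour 1b.

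Of 11 classical activation genes 6 were tested in the tumours and 0 passed, with 1 at unadjusted p under 0.05, 1 passing in DESeq2 and 0 in limma-voom. The 1 with the smallest p was Tnf, at 0, 0.567 and 0.379 CPM in the glands, 2.38 and 3.27 CPM in tumours 1a and 1b, 0.985 CPM in the spindle cell tumour and 1.5 CPM in the papillary tumour (log2 fold change 2.34, SE 0.76, adjusted p = 0.0957 in edgeR's test). In the adenosquamous comparison 1 of 9 rose, the inflammatory cytokine Il1b, from 0.354, 0.284 and 0.190 CPM in the glands to 11.4 and 22.9 CPM in tumours 1a and 1b (log2 fold change 5.98, SE 0.57, adjusted p = 0.0182 in edgeR's test). Neutrophil markers were also highest in these tumours, with 8 genes that summed to 45.2 and 74.4 CPM. The part of neutrophils in the Il1b level was not tested. Il1b was 0.197 and 0.279 CPM in the spindle cell and papillary tumours, within the range of the glands. Its call was lost without gland 3 or tumour 1b.

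**Figure D4:**
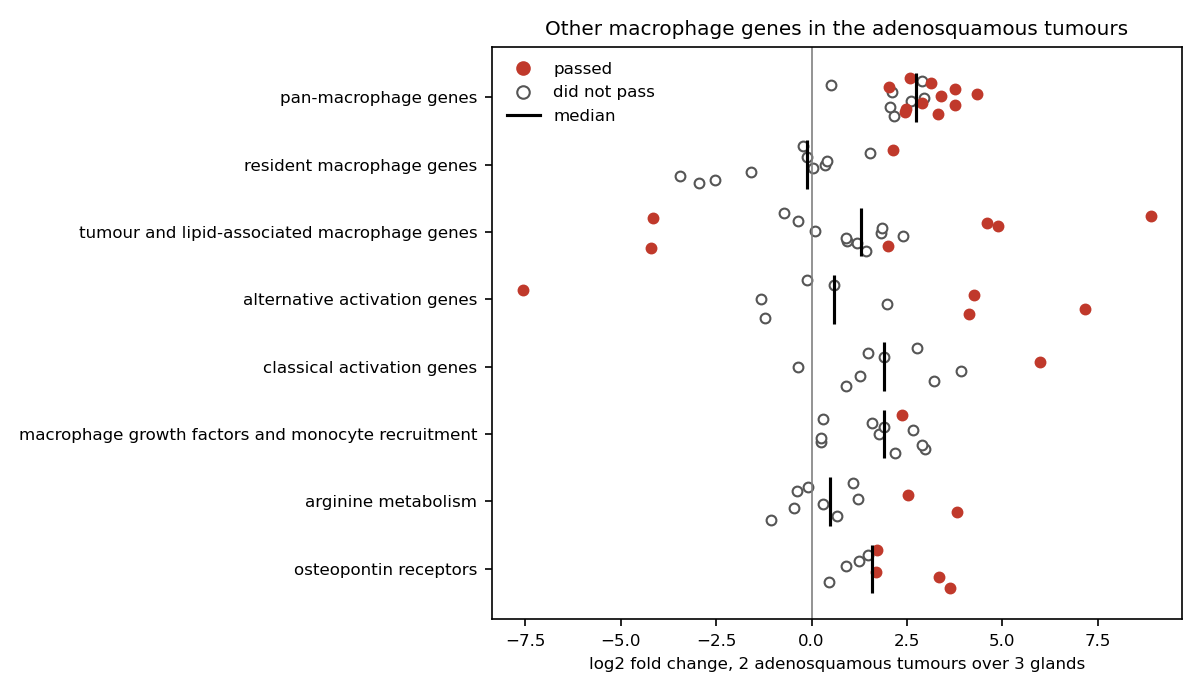
Log2 fold changes of the other macrophage genes in the 2 adenosquamous tumours against the 3 glands, by list, with the median as a line. Red points passed at adjusted p under 0.05 in edgeR's test: 11 of 18 further pan-macrophage genes rose, while the genes of tumour and lipid-associated macrophages moved in both directions. Of all genes tested in that comparison, 5.01% passed as higher and 5.36% as lower.

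Of 13 genes of macrophage growth factors and monocyte recruitment, 9 were tested in the tumours and 1 rose, the chemokine Cx3cl1, ligand of the Cx3cr1 named above. It was 2.48, 4.48 and 6.02 CPM in the glands, 15.8 and 12.0 CPM in tumours 1a and 1b, 22.7 CPM in the spindle cell tumour and 20.7 CPM in the papillary tumour (log2 fold change 2.00, SE 0.41, adjusted p = 0.0291 in edgeR's test). The call was lost without any 1 of the glands, tumour 1b or the spindle cell tumour. In the adenosquamous comparison 1 of 11 rose, Sirpa, the receptor of Cd47 on myeloid cells, by 5.21-fold (adjusted p = 0.0299 in edgeR's test), and that call was lost without gland 1, gland 3, tumour 1a or tumour 1b.

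Of 10 genes that transport or use arginine besides Arg1, 2 rose in the tumours, against 3.9% of all genes tested. The arginine transporter Slc7a1 was 4.6, 9.33 and 9.05 CPM in the glands, 34.6 and 60.1 CPM in tumours 1a and 1b, 35.1 CPM in the spindle cell tumour and 45.7 CPM in the papillary tumour (log2 fold change 2.49, SE 0.37, adjusted p = 0.0125 in edgeR's test). Ass1, which makes the precursor of arginine, was 3.18, 5.48 and 1.94 CPM in the glands, 34.4 and 70.9 CPM in tumours 1a and 1b, 7.0 CPM in the spindle cell tumour and 68.3 CPM in the papillary tumour (log2 fold change 3.65, SE 0.85, adjusted p = 0.0421 in edgeR's test). All tumours were above all glands for both genes, which many other cells also use. The count of 2 became 1 without gland 1, gland 2, tumour 1a, tumour 1b or the papillary tumour and 0 without gland 3, and it was 1 in limma-voom and 4 in DESeq2.

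Of the 8 genes for receptors of osteopontin, 0 passed in the tumours, with 3 at unadjusted p under 0.05, 2 passing in DESeq2 and 0 in limma-voom. The integrin chain Itga5 had the smallest p, at 4.24, 5.86 and 9.34 CPM in the glands, 82.9 and 56.3 CPM in tumours 1a and 1b, 8.97 CPM in the spindle cell tumour and 8.22 CPM in the papillary tumour (log2 fold change 2.57, SE 0.92, adjusted p = 0.121 in edgeR's test). Against the glands, 4 of the 8 rose in the adenosquamous tumours, Cd44, Itga5, Itgb5 and Itga9, the first by 12.4-fold (adjusted p = 0.0307 in edgeR's test). Of all genes tested in that comparison, 5.01% passed as higher. The papillary tumour, which had as much Spp1 as tumour 1b, had 17.0 CPM of Cd44, within the 6.72 to 32.4 CPM of the glands, against 383 CPM in tumour 1b. The count of 4 became 2 without gland 1 and 0 without gland 3, tumour 1a or tumour 1b, with 6 or 7 at unadjusted p under 0.05 in these edgeR fits.

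The genes whose pattern was nearest to 3 of the members were ranked by Pearson correlation of log2 CPM over the 7 libraries, as a description of libraries that share tissue, depth and composition. Nearest to Cd163 were Cox7a1 (r = 0.989), a muscle and heart form of a respiratory chain subunit, Tmem33 (r = 0.989) and Hccs (r = 0.985). Cox7a1 was 98.0, 26.8 and 25.8 CPM in the glands and 4.6 CPM or less in the tumours. Nearest to Arg1 were Csf2ra (r = 0.971), a receptor chain for the growth factor GM-CSF, Slc35e3 (r = 0.966) and Carmil1 (r = 0.965). Nearest to Trem2 were Iqgap1 (r = 0.998), Sirpa (r = 0.990) and Tcirg1 (r = 0.987), a subunit of the proton pump that acidifies lysosomes and osteoclast pits.

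Lists of other cells gave the surroundings of these values. Between tumours and glands, edgeR's test passed 6 of 6 adipocyte genes as lower and 2 of 6 epithelial genes as higher (Krt8 and Krt14). The dendritic cell gene Zbtb46 (log2 fold change -2.16, adjusted p = 0.0263 in edgeR's test) and the hepatocyte gene Alb also passed as lower. Each was the only 1 of the 6 genes of its list that was tested. Between adenosquamous tumours and glands 4 dendritic cell genes were tested and 0 passed. Of these only Flt3 had a positive log2 fold change (0.52). Alb had 602 counts in the glands and 0 in the tumours. Its ratio was 209 against a floor of 3 counts over the 4 tumours, and the lower 95% counting limit was 169. With 1 library left out, 1 to 6 adipocyte genes and 0 to 3 epithelial genes passed. The call of Zbtb46 was lost without any 1 gland, the spindle cell tumour or tumour 1b, and that of Alb without any 1 gland. In the lists of lymphatic endothelium, neutrophils, osteoclasts, melanocytes, lymphocytes and skeletal muscle 4, 2, 4, 1, 2 and 6 genes were tested. Of these 0 passed in edgeR's test, with 1, 1, 2, 1, 0 and 6 genes at unadjusted p under 0.05. DESeq2 passed 1, 1, 2, 0, 0 and 5 genes of these lists, and limma-voom 0 in each. Between adenosquamous tumours and glands, 3 of 4 tested neutrophil genes, 2 of 5 osteoclast genes and 1 of 6 lymphatic genes rose in edgeR's test. Of the melanocyte, lymphocyte and skeletal muscle genes 0 passed there, with 1, 6 and 6 tested. Of all genes tested in that comparison, 5.01% passed as higher.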

How the data were processed

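Total RNA of 3 control glands and 4 tumours was read as pairs of 75 bases from libraries that do not mark the strand, per the labels' protocols. The authors deposited 1 value per gene and library in a column headed TPM. They were read as the authors' expected counts per gene, since their sums differ between libraries (5148438 to 35631279) where TPM has 1 fixed sum, and they were rounded. STAR 2.5, RSEM 1.3, limma and GRCm38 are named without roles per the submitters' processing notes, and the sources used here do not give the annotation or filters.

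Genes were tested in R 4.3.3 with edgeR 4.0.16 (quasi-likelihood F test, two-sided, TMM, filterByExpr at its defaults of 10 counts and 15 in total, Benjamini-Hochberg over all genes tested, threshold 0.05). CPM uses TMM-scaled library sizes, and log2 CPM a prior count of 2. SE is the size of the log2 fold change over the square root of F. The procedure was tested on simulated data with the same spread for every gene, which does not measure its error rates in these libraries. No 2 libraries of a group agreed within sampling noise (chi-square per degree of freedom 85.0 to 374.9), and each counted as 1 replicate. Alternatives were DESeq2 1.42.0, limma-voom (limma 3.58.1), other scalings and filters, a fit with 4 groups, and leaving out each library.

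The members and the 18 lists were chosen with earlier results of these data known. Named are all members, in each list the genes with the smallest adjusted p among those that passed between tumours and glands (up to 2 in each direction) or else the gene with the smallest p, and the 3 genes nearest in pattern to Cd163, Arg1 and Trem2 among those with a mean log2 CPM of at least 2. Genes named from the adenosquamous comparison beyond these were chosen after their values were seen. Positions are from GENCODE on GRCm38. Protein sequences were not used here.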

Additional observations from a re-analysis of the deposited data

Results flagged for a closer look

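In 2 members 1 tumour stood far from the other tumours in CPM by Dixon's test. Its nominal rate of about 1 in 20 groups assumes normal values of 1 population. CPM values of 3 tumour types need not meet that, so the rate may not hold here. Lyve1 was 21.5 CPM in adenosquamous tumour 1a, against 1.5 CPM in the next tumour, and the gap was 0.931 of the range over the 4 tumours. Gpnmb was 664 CPM in adenosquamous tumour 1b, against 74.4 CPM in the next tumour, a gap of 0.890 of the range. In log2 CPM, where the test was not run, Lyve1 was 4.44, 0.70, -3.02 and -0.35 in tumours 1a, 1b, spindle cell and papillary. Gpnmb was 3.10, 9.37, 0.77 and 6.22 in the same order. The gap to the next tumour was a smaller part of the range on that scale for both genes.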

How the results depend on the processing

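Of the members, 1 passed between tumours and glands, 6 in DESeq2 and 0 to 2 when 1 library was left out. The shares of all genes tested were 8.47%, 24.1% and 0.654% to 9.88%. With gland 2 as the only control (added after seeing the data) Cd163 was at -3.67. Between adenosquamous tumours and glands 3 passed, 8 in DESeq2, 7 without the filter and 0 to 5 when 1 gland was left out. The shares of all genes tested were 10.4%, 24.2%, 9.34% and 0 to 10.8%. Among tumour types 0 passed in edgeR (5 at unadjusted p under 0.05), 5 in DESeq2 and 6 without the filter. The shares of all genes tested were 0.125% (18.1% at unadjusted p under 0.05), 13.5% and 5.03%. With 1 library left out, Mrc1 ranged from -0.71 to 0.29 between tumours and glands, positive without gland 2, the spindle cell tumour or the papillary tumour, and Lyve1 from -3.46 to 0.03, positive without the spindle cell tumour. Between adenosquamous tumours and glands Lyve1 changed sign in limma-voom (-0.33) and without tumour 1a, with a range from -2.44 to 1.44 over left-out libraries, and Trem2 did not pass in limma-voom (4.17, adjusted p = 0.0863). Cd163 passed there with a minimum count of 30 (-3.94, adjusted p = 0.0498 in edgeR). DESeq2 called more genes in each macrophage list there, such as 17 of the pan-macrophage list against 11. The causes were not tested. Left-out libraries reduce the samples, and tumours 1a and 1b then stand for their group alone, on the assumption that they vary as the glands do. Gland 1, the shallowest, had 10 or fewer counts of Adgre1, Cd68, Trem2 and Gpnmb, which limits their folds. No paired analysis was possible because the labels do not pair glands with tumours.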

Other observations

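The values here were chosen after they were seen. The matrix-degrading macrophage elastase Mmp12 was 2760 CPM in adenosquamous tumour 1b, 30 CPM in tumour 1a, 6.80 CPM in the spindle cell tumour, 59.1 CPM in the papillary tumour and 0.948 to 4.6 CPM in the glands. Il1rn, the decoy ligand of the interleukin-1 receptor, was 137 CPM in tumour 1b, 17.7 CPM in tumour 1a, 6.83 CPM in the papillary tumour and 1.28 CPM in the spindle cell tumour, with 0.757 CPM or less in the glands. Tumour 1b was thus the highest library for both, as it was for 7 of the 10 members, a rank not computed over all genes. Ocstamp, a gene of cell fusion in osteoclasts and giant cells, was 45.8 CPM in the papillary tumour, 5.36 CPM in tumour 1a and 0.952 CPM or less in the other libraries.

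Timd4, a receptor for phosphatidylserine on resident macrophages, was 26.5 CPM in gland 2 and 16.3 CPM in tumour 1a and 0.948 CPM or less in the other libraries. The same 2 libraries held the B cell gene Ms4a1, at 38.6 and 22.6 CPM, and Ccl21a, a chemokine of lymphatic vessels and lymph node stroma, at 17.6 and 14.5 CPM. In each of the other 5 libraries Ms4a1 was at 0.272 CPM or less and Ccl21a at 0.105 CPM or less. Gland 2 and tumour 1a also had the highest Lyve1 of their groups, at 10.1 and 21.5 CPM.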
